A study of Mus musculus with 3 samples.

Results

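The cell cycle genes described here are 35 of the 31053 genes listed for the control and high fat diet libraries and of the 32285 listed for the Western diet library. They were taken by symbol from a list and not by their values: 17 act while DNA is copied (S phase) and 18 act from the approach to mitosis to the separation of the chromosomes. All 35 were measured in every library. They were followed in sorted heart cells, both in those with high transcript levels of the complement genes C1qa, C1qb and C1qc, which mark tissue macrophages, and in the C1q-low cells that passed the same sort.

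Wild type mice aged 32 to 34 weeks were fed on 1 of 3 diets: control (CD), high fat (HFD) or Western (WD), each represented by 1 library. Per the labels, hearts were flushed and digested with collagenase, live single cells positive for CD45 (all leukocytes), F4/80 (macrophages) and CD11b (myeloid cells) were sorted, and 3′ single-cell RNA libraries were made with the same droplet kit. No genotype other than wild type, no transgene and no other agent is named for any group. What the diets contained, how long they lasted and how many hearts went into a library were not given in the sources used here. Since each diet has 1 library, diets could not be tested against each other, and a difference between diets cannot be told apart from a difference between libraries.

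The libraries held 17464149 (CD), 16630481 (HFD) and 79269380 (WD) unique molecular identifiers (UMIs), each standing for 1 captured transcript. A barcode was called a cell at 1000 or more UMIs, 200 or more genes and at most 10% mitochondrial UMIs, which left 2679 CD, 2717 HFD and 4775 WD cells. Cells with C1qa, C1qb and C1qc at 0.3% or more of their UMIs, called C1q-high, were 85.6%, 73.7% and 77.8% of these (2293, 2002 and 3717 cells), with medians of 4319, 2953.5 and 12242 UMIs. The C1q limit fell in a thinly filled range in CD and HFD, where 27 and 25 cells lay between 0.2 and 0.4%, but 444 WD cells lay there. All 9 general macrophage markers, among them Csf1r and Adgre1 (F4/80), were detected in the C1q-high cells of each library. The WD library stands apart. Its files come from software version 7.2.0 against 3.0.1 for the others, and it is deeper per cell. Only 92 of its 6885 barcodes (1.34%) are among the 737280 of the CD barcode list, although the labels name the same kit. Cells of CD and HFD shared 15 barcodes, those of CD and WD shared 1, and those of HFD and WD shared 0.

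Dividing cells pass through a fixed series of phases. Before S phase the MCM helicase is loaded at replication origins, and release of E2F transcription factors from the retinoblastoma protein switches on genes for replication and nucleotide supply. Before mitosis a later wave of genes follows, held off in resting cells by the DREAM complex, which binds a promoter element called the cell cycle genes homology region (CHR), and driven in cycling cells by B-Myb and FoxM1; the anaphase-promoting complex then destroys cyclins and other proteins to end mitosis. Macrophages of the adult heart are known to renew partly by dividing in place and partly from circulating monocytes, which carry the chemokine receptor Ccr2, whereas Lyve1 marks a long-lived resident subset.

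Part of the promoters hold sequences that match elements of these programmes. RefSeq sequences on build GRCm38.p6, from 250 bases before to 50 after the transcription start, were found for 30 members (15 of each list) and not for Gins2, Gmnn, Ccna2, Stmn1 and Aurkb. An E2F-type sequence (TTTCCCGC or TTTGGCGC or TTTCGCGC or TTTGCCGC, on either strand, of which overlapping copies were each counted) was present in 6 of 15 S-phase promoters (40.0%), those of Mcm3, Mcm5, Mcm6, Mcm7, Pclaf and Hells. It was present in 1 of 15 mitotic promoters (6.67%), that of Cdk1, and in 2.32% of the promoters of 27025 genes. The CHR sequence (TTTGAA or TTCGAA, on either strand) showed the opposite split, with 11 of 15 mitotic promoters (73.3%) and 2 of 15 S-phase promoters (13.3%, Mcm2 and Mcm7) against 19.4% of all promoters. The 11 belong to Cdk1, Ccnb2, Plk1, Bub1, Cdc20, Ube2c, Cdca3, Top2a, Mki67, Cenpf and Hmgb2. CCAAT, the NF-Y element that often accompanies a CHR, was common in both lists (73.3% of S-phase and 86.7% of mitotic promoters, against 37.9%). These are matches of letters and not measured binding. The sequences below show the 2 members of each list with the highest mean level among those holding the element, with each element in capitals. For Mcm3 (chr1:20820266-20820294, minus strand) both E2F-type matches lie just after the start, and only that stretch is shown. For Mcm6 (chr1:128359706-128359955, minus strand), Hmgb2 (chr8:57511593-57511842, plus strand) and Top2a (chr11:99024190-99024439, minus strand) the 250 bases before the start are shown. Mcm6 holds 3 E2F-type matches, of which 2 overlap, Hmgb2 holds 2 CHR matches and Top2a holds 4.
Mcm3: gGCGGGAAAacttgggaagtTTTGGCGCc
Mcm6: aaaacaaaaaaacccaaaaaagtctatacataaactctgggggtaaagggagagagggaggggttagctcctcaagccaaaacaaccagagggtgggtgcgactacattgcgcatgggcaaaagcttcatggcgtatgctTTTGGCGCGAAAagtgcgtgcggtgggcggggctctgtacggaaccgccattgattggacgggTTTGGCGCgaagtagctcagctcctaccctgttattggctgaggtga
Hmgb2: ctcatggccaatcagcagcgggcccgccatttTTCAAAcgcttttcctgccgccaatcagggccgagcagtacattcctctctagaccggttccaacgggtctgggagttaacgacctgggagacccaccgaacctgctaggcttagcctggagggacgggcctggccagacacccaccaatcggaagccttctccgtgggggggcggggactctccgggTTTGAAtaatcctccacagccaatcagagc
Top2a: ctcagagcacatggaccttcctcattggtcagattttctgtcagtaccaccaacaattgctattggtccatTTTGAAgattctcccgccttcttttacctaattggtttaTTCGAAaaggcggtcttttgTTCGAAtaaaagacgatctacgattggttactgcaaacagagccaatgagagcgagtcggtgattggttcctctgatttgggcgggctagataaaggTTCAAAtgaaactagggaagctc

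Levels are given as UMIs per 1000000 UMIs of the C1q-high cells (CPM), in the order CD, HFD, WD. They count transcript ends, and levels of single genes were compared between libraries or sets of cells, not between genes. Shares of a sum and the proportion of S-phase to mitotic UMIs, given below, do set genes against each other. Summed over the list, the S-phase genes stood at 546, 399 and 313 CPM and the mitotic genes at 1389, 1073 and 868 CPM. Tubulin Tubb5, the microtubule regulator Stmn1 and the chromatin protein Hmgb2, which resting cells also use, made up 77.1%, 79.4% and 72.3% of the mitotic sum. Without these 3 genes the mitotic sum was 318, 221 and 240 CPM. A lower sum can come from fewer cycling cells or from a lower share of these transcripts in the RNA of each cell. The sums alone cannot tell these apart.

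**Figure D1:**
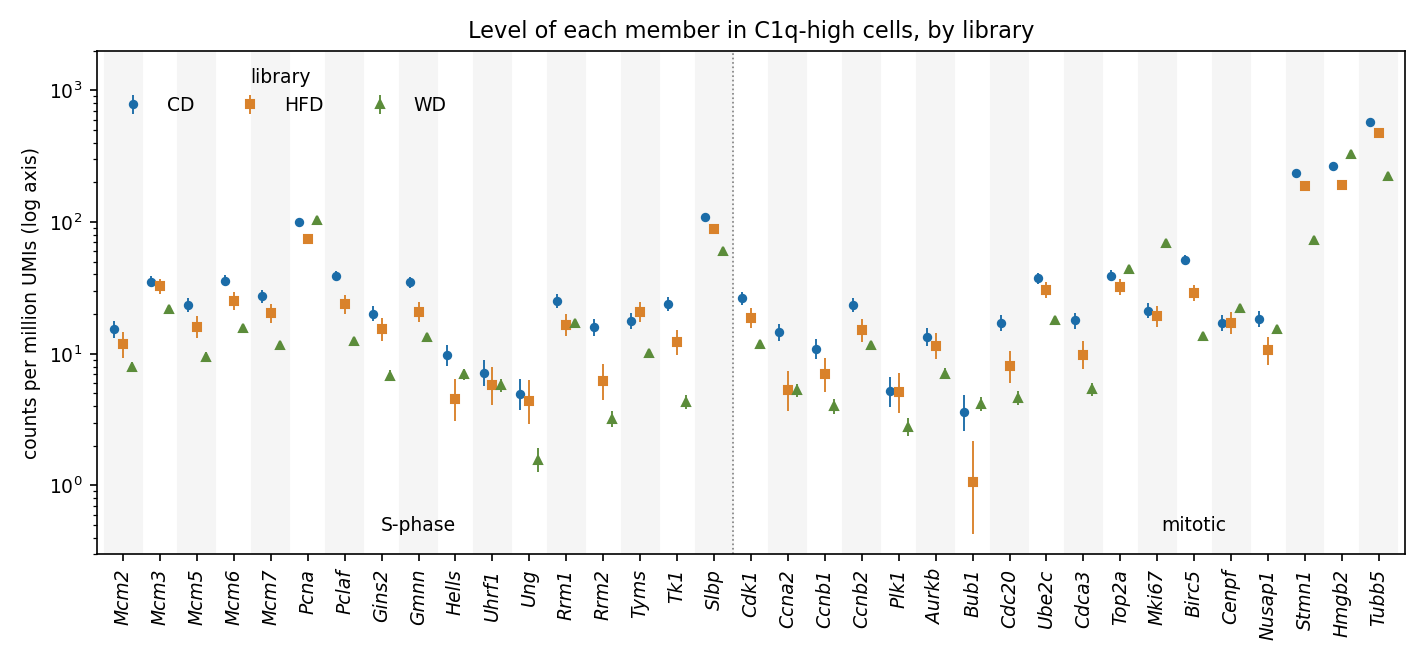
Level of each of the 35 members (CPM on a log axis) in the C1q-high cells of the CD, HFD and WD libraries, 1 library each, with 95% Poisson intervals that cover counting error only. For 28 members the CD point is the highest of the 3, for Tyms the HFD point, and for Bub1, Cenpf, Hmgb2, Mki67, Pcna and Top2a the WD point.

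Mcm2, Mcm3, Mcm5, Mcm6 and Mcm7, subunits of the hexameric helicase that opens origins, all stood highest in CD and lowest in WD. Mcm2 was at 15.4, 11.8 and 7.92 CPM, Mcm3 at 35.3, 32.6 and 21.9, and Mcm5 at 23.5, 16.1 and 9.45. Mcm6 was at 35.8, 25.3 and 15.7 CPM and Mcm7 at 27.3, 20.3 and 11.7. Among the fork and licensing genes, the sliding clamp gene Pcna was at 100.4, 74.2 and 104 CPM, so that CD and WD were nearly level. Reads of Pcna can fall on processed copies of the gene, of which Pcna-ps2 had 6 CD and 2 HFD UMIs. The clamp-binding factor Pclaf followed another course, at 39.1, 23.8 and 12.4 CPM. Gins2, a subunit of the replicative helicase complex, was at 20.2, 15.3 and 6.82 CPM, and Gmnn, whose product geminin blocks another round of licensing, at 34.8, 20.9 and 13.5. The chromatin genes differed from these. Hells, a remodeller needed for DNA methylation, was lowest in HFD (9.74, 4.54 and 6.99 CPM), and Uhrf1, which guides methylation to new strands, varied little (7.20, 5.76 and 5.75). Ung, which removes uracil from DNA, was at 4.91, 4.39 and 1.56 CPM.

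The genes that supply nucleotides spread widely in their course across libraries. Both subunits of ribonucleotide reductase make deoxynucleotides: the large subunit gene Rrm1 was at 25.3, 16.5 and 17 CPM and the small subunit gene Rrm2 at 16, 6.21 and 3.20. Thymidine kinase Tk1 showed a similar course to Rrm2, at 23.9, 12.3 and 4.30 CPM. Thymidylate synthase Tyms was the only member highest in HFD (17.8, 20.9 and 10.1 CPM). Slbp, which binds the stem-loop of histone transcripts, was at 109, 88.6 and 60.1 CPM.

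Of the mitotic kinases and cyclins, Cdk1, the kinase that triggers mitosis, was at 26.5, 18.8 and 11.9 CPM. Its partners followed: Ccna2 at 14.6, 5.30 and 5.26, Ccnb1 at 10.9, 6.97 and 3.99, and Ccnb2 at 23.4, 15.1 and 11.6. Polo-like kinase Plk1 was at 5.18, 5.15 and 2.79 CPM, and Aurkb, the kinase of the chromosomal passenger complex, at 13.4, 11.5 and 7.06. Bub1, a kinase of the spindle checkpoint, rested on few UMIs, with 41 in CD, 7 in HFD and 251 in WD (3.6, 1.06 and 4.17 CPM). Genes of protein destruction at mitosis stood in the same order in all libraries, CD above HFD above WD. The activator Cdc20 was at 17.1, 8.03 and 4.60 CPM, the ubiquitin-conjugating enzyme Ube2c at 37.6, 30.8 and 18.1, and Cdca3, a factor that promotes entry into mitosis, at 17.9, 9.85 and 5.36.

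Among the chromosome genes only Birc5 (survivin, of the passenger complex) kept this order, at 51.9, 28.9 and 13.7 CPM. Top2a, the topoisomerase that untangles sister chromatids, was at 39.1, 32.1 and 44.2 CPM, and Cenpf, a kinetochore protein, at 17.2, 17.1 and 22.4. Mki67, which coats mitotic chromosomes and is the usual marker of proliferation, was at 21.2, 19.2 and 69.6 CPM. Nusap1, a spindle protein, was at 18.3, 10.6 and 15.5 CPM. Of the genes also used outside division, Stmn1 was at 235, 188 and 73.7 CPM, Hmgb2 at 266, 191 and 331, and Tubb5 at 571, 474 and 222. The plot of levels by library shows 25 of the 35 members in the order CD, HFD, WD from highest to lowest.

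How far a member is confined to dividing cells was read from the share of its UMIs that lay in a small class of cells. A C1q-high cell was called cell-cycle-high when the members other than Stmn1, Hmgb2, Tubb5 and Slbp made up 0.2% or more of its UMIs, with at least 3 of them. The limit was chosen after the data were seen, and for each member's own value the member was left out of the sum. This rule took 155 of 2293 cells in CD (6.76%, exact Clopper-Pearson 95% interval 5.77 to 7.87%), 76 of 2002 in HFD (3.80%, interval 3.0 to 4.73%) and 118 of 3717 in WD (3.17%, interval 2.63 to 3.79%). All intervals here and below cover counting error only, not the spread between animals or libraries. The class is a range and not a cell type: 73, 66 and 40 cells lay just below the limit (0.1 to 0.2%) and 50, 16 and 27 just above it (0.2 to 0.3%). Thinned to 1000 UMIs each, 5.71%, 3.95% and 3.04% of cells held 3 or more UMIs of these 31 members, so CD stood above HFD and WD at equal depth.

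With the complete mitotic list, 3 or more UMIs of 1000 were mitotic in 8.02% (interval 6.94 to 9.21%) of the CD cells, 5.84% (interval 4.86 to 6.96%) of the HFD cells and 4.90% (interval 4.22 to 5.64%) of the WD cells. Another 201, 164 and 262 cells held exactly 2, and 53, 40 and 68 held exactly 3. Without thinning, 5.84%, 3.65% and 2.96% of cells had mitotic UMIs at 0.3% or more. For S-phase genes the shares with 3 or more of 1000 were 3.84%, 2.50% and 1.43%. The CD interval lay above that of WD for each of these shares. It lay above that of HFD for the cell-cycle-high share and for the mitotic share without thinning. At 1000 UMIs the CD and HFD intervals overlapped. Those of HFD and WD overlapped throughout. Near-empty barcodes of at most 100 UMIs, which hold free RNA, carried the members too, at 214 (CD) and 165 (HFD) CPM for the S-phase sum and 648 and 493 CPM for the mitotic sum. The WD library listed 6885 barcodes, the smallest with 504 UMIs, so it held no near-empty barcodes.

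Mitotic transcripts were concentrated in the cell-cycle-high cells, and most S-phase transcripts less so. The class was chosen by the members, so these shares are a description and were not tested. The median mitotic member had 89.9% (CD), 87.2% (HFD) and 80.5% (WD) of its UMIs in that class. For S-phase members the medians were 54.2%, 35.8% and 32.7%. In every library 75% or more of the UMIs of 12 of 18 mitotic members lay in the class, but of only 2 of 17 S-phase members, Pclaf and Rrm2. Ccna2 had 97.6%, 88.6% and 92.4% of its UMIs there, with 141, 83.7 and 88.5 CPM in the class and 0.391, 0.642 and 0.422 CPM in the remaining C1q-high cells. Birc5 had 92.9%, 88.5% and 85.1% of its UMIs there, and Ube2c 96.3%, 93.6% and 87.0%. In near-empty barcodes Ccna2 was at 6.52 (CD) and 3.49 (HFD) CPM, above its level in the remaining cells.

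Pclaf was the S-phase counterpart, with 93.0%, 93.0% and 87.8% of its UMIs in the class. At least 1 Pclaf UMI was found in 62.3%, 56.6% and 77.6% of cell-cycle-high cells and in 0.790%, 0.470% and 1.17% of the remaining cells. Rrm2 (95.6%, 82.9% and 80.8%) and Tk1 (90.4%, 84.0% and 71.8%) were similar. Pcna was at the other end, with 30.6%, 20.6% and 13.7% of its UMIs in the class, and 77.0, 62.2 and 94.9 CPM in the remaining cells. The helicase genes lay between, from 35.6% (Mcm3) to 56.3% (Mcm7) in CD and from 21.6% (Mcm3) to 36.9% (Mcm5) in WD. Slbp had 27.2%, 17.1% and 12.8%, and Tubb5 41.0%, 30.5% and 26.8%. Mki67 changed place: 89.7% and 89.0% of its UMIs lay in the class in CD and HFD but 69.5% in WD, where the remaining cells held 22.3 CPM against 2.44 and 2.25.

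**Figure D2:**
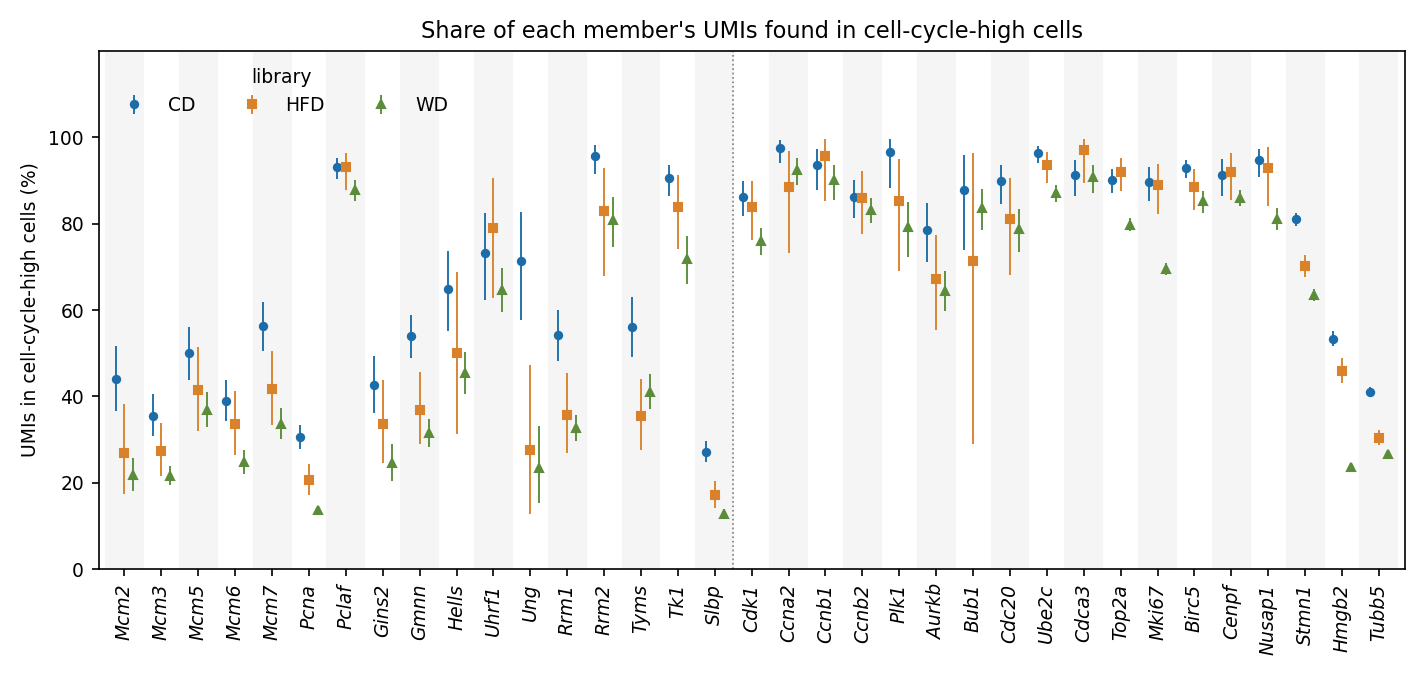
Share of each member's UMIs (percent, linear axis) that lay in cell-cycle-high cells of the CD, HFD and WD libraries; each member was left out of the sum that chose the cells for its own point. Mitotic members sit mostly above 75%, S-phase members mostly below, with Pclaf and Rrm2 above in every library.

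Cell-cycle-high cells carried macrophage transcripts. All 9 macrophage markers were detected in them, including the 3 C1q genes that chose the cells, with a summed level of 18063, 19069 and 10508 CPM against 23343, 25259 and 12230 CPM in the remaining C1q-high cells. The 6 markers other than the C1q genes summed to 2105, 2353 and 3258 CPM against 2762, 2815 and 3900. Markers of other cell types were present as well. Neutrophil markers summed to 554 (4 of 5 detected, Ly6g at 0), 13.5 (2 of 5, with S100a9, Retnlg and Ly6g at 0) and 678 CPM (5 of 5) in the class against 835, 127 and 1198 in the remaining cells. Endothelial markers summed to 361, 267 and 20.9 CPM (5, 5 and 3 of 5, with Cdh5 and Kdr at 0 in WD) against 202, 343 and 28.1, and T, NK and B cell markers to 7.81, 0 and 15.9 CPM (2, 0 and 6 of 7) against 5.37, 0.321 and 28.4. The cell-cycle-high cells were deeper, with medians of 6633, 4776 and 25206.5 UMIs against 4244, 2906 and 12080. Their Scrublet doublet scores, the share of simulated doublets among a cell's neighbours, were slightly higher in the median (0.0732 against 0.0579, 0.0649 against 0.0612 and 0.0855 against 0.0606). The part of depth, doublets and other cell types in these values was not tested beyond the alternatives given at the end.

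Most cells of the cell-cycle-high class held UMIs of both lists, in differing proportion; 22 of 155 (CD), 14 of 76 (HFD) and 2 of 118 (WD) held those of 1 list alone. A cell was called S-led when S-phase genes gave 50% or more of its 31-member UMIs, and mitosis-led otherwise, so the 50% limit makes the sets. In CD 83 of 155 cells were S-led (53.5%, 45.4 to 61.6%), in HFD 33 of 76 (43.4%, 32.1 to 55.3%) and in WD 26 of 118 (22.0%, 14.9 to 30.6%). Cells with S-phase UMIs alone numbered 17, 8 and 0, and cells with mitotic UMIs alone 5, 6 and 2. Those with S-phase UMIs alone had medians of 4661 (CD) and 3924.5 (HFD) UMIs, against 25206.5 in the whole WD class. The split was made without thinning, and the part of depth in it was not tested. WD cells, the deepest, were mostly mitosis-led. Summed over all C1q-high cells, the 16 S-phase genes had 1.37, 1.41 and 1.05 times as many UMIs as the 15 mitotic genes. Mki67 alone gave 242 of 3623, 127 of 1456 and 4189 of 14462 of the mitotic UMIs. Without it, a choice made after its values were seen, the ratios were 1.47, 1.54 and 1.48. WD was then level with the others in these pooled UMIs, but not in the split of cells. With Mki67 left out of the rules that chose and split the cells, 33 WD cells were S-led and 73 mitosis-led. In CD these were 83 and 71 cells, and in HFD 37 and 39.

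**Figure D3:**
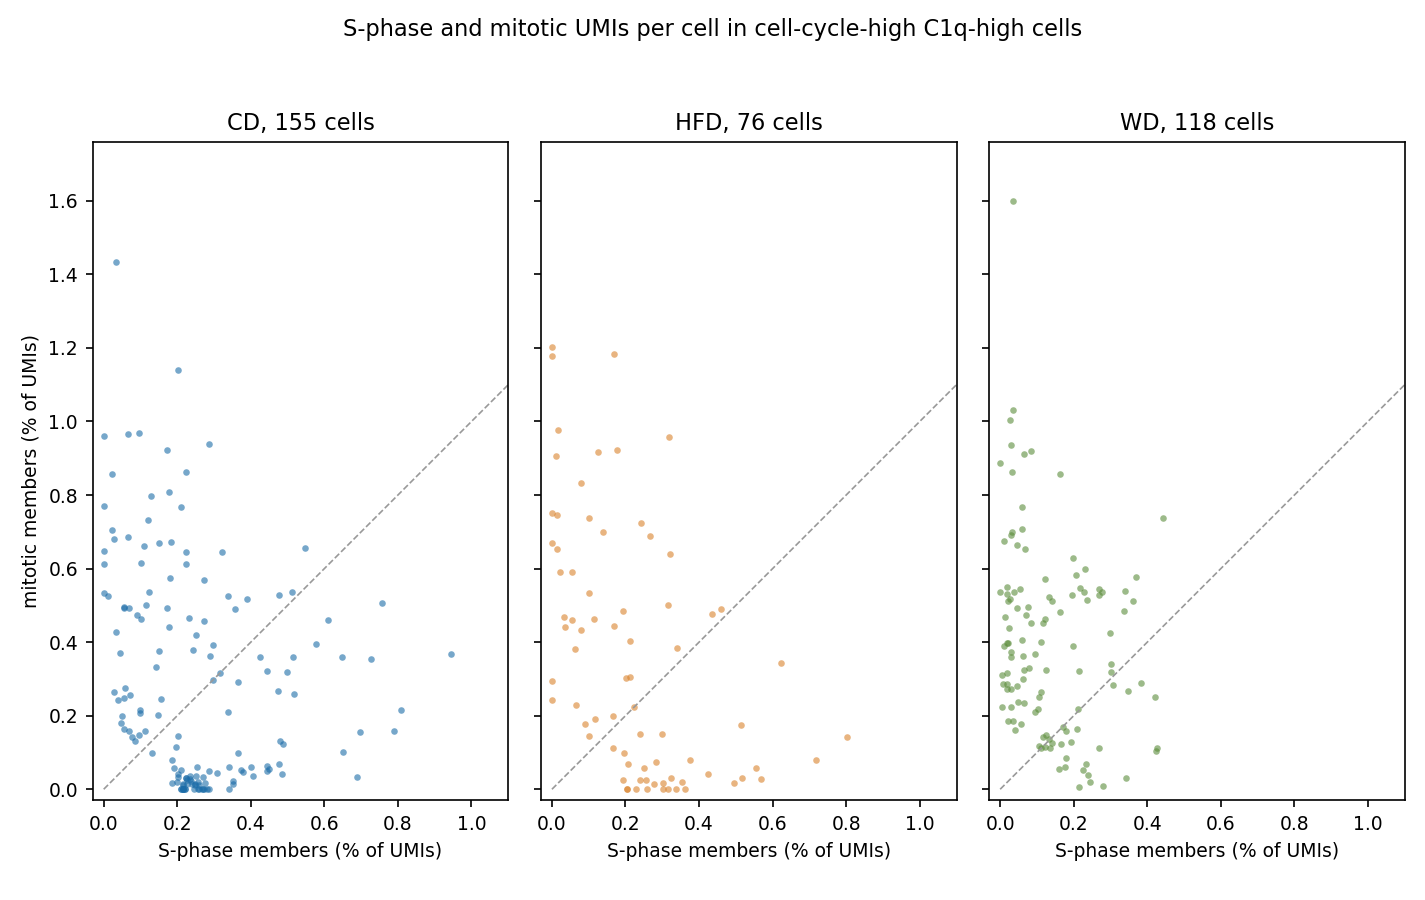
Each point is 1 cell-cycle-high cell of the CD (155), HFD (76) or WD (118) library, placed by the percent of its UMIs from 16 S-phase genes (x axis) and from 15 mitotic genes (y axis). Points spread along both axes in CD and HFD, while in WD 92 of 118 cells lie on the mitotic side of the diagonal.

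With each member left out of the split for its own value, S-phase members followed the S-led cells: 14, 13 and 14 of 17 were 1.5-fold or more higher there with at least 20 UMIs over both sets, and 0 were higher in the mitosis-led cells. Mitotic members did the reverse, with 18, 16 and 16 of 18. Of all genes with as many UMIs, 12.5%, 15.9% and 12.2% were higher in the S-led cells and 16.6%, 16.7% and 15.4% in the mitosis-led cells. The members made the split, so nothing is read from these counts. Mcm6 stood at 257 CPM in S-led and 35.4 in mitosis-led cells of CD, at 301 and 59.8 in HFD and at 160 and 49.9 in WD. Ung had 39 UMIs against 1 in CD, 8 against 0 in HFD, too few to be called, and 21 against 1 in WD. Ccnb1 stood at 11.9 against 193 CPM in CD, at 0 against 44 UMIs in HFD and at 3.66 against 84.4 CPM in WD. Cdc20 was at 22.1 against 287, 6.54 against 193 and 7.32 against 85.1 CPM. Cenpf was at 23.8 against 292, 31.7 against 466 and 58.1 against 485 CPM. Top2a was split less, at 195 against 558, 284 against 778 and 357 against 900 CPM. A few members were close to level between the sets in some libraries. Pclaf was at 383 against 362 CPM in CD and 438 against 365 in HFD, although 322 against 183 in WD. Rrm1 was at 131 against 145 CPM in CD and 101 against 101 in WD, although 144.5 against 85.7 in HFD. Stmn1 was near level only in WD, at 787 against 860 CPM, and stood at 1509 against 2267 in CD and 1818 against 2725 in HFD.

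Genes outside the list that act with the members were read in the same cells. Of 43 such regulators, 40, 34 and 43 had at least 20 UMIs, and 23 (CD), 17 (HFD) and 25 (WD) were 1.5-fold or more higher in cell-cycle-high than in remaining cells, against 18.3%, 22.3% and 17.1% of all genes. Lower were 4, 4 and 3 of them, against 13.0%, 19.4% and 13.4% of all genes. Licensing and complex partners were higher in 10 of 10, 7 of 8 and 10 of 10. Mcm4, the helicase subunit not on the list, was at 49.5 against 8.20, 56.7 against 8.35 and 44.0 against 17.9 CPM. Cdca8, which anchors Aurkb and Birc5 in the passenger complex, was at 161 against 4.59, 186 against 5.46 and 129 against 3.08 CPM. Ccne2, the cyclin of S-phase entry, was at 26.9 against 0.195, 27.0 against 0.160 and 24.2 against 0.650 CPM, with 10 against 1 UMIs in HFD. Foxm1, the driver of mitotic genes, had 19 against 3 UMIs in CD, 9 against 0 in HFD and 126 against 51 in WD. These counts come from sets of unlike size, and as log2 ratios of CPM they stood at 5.82 in CD and 5.39 in WD. E2f1 was at 77.2 against 25.1, 70.2 against 21.0 and 30.2 against 13.0 CPM.

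Of 7 inhibitors of the cycle, 3 were higher in the class in each library, against 18.3%, 22.3% and 17.1% of all genes. Lower were 2 in CD (Cdkn1c and Cdkn2b), 1 in HFD (Cdkn2b) and 0 in WD, against 13.0%, 19.4% and 13.4% of all genes. Cdkn2c (p18), which blocks the D-cyclin kinases, was at 218 against 32.3, 227 against 29.2 and 72.7 against 8.56 CPM, and Cdkn2d (p19) at 122 against 27.6, 138 against 27.3 and 63.1 against 25.3. The kinase they bind, Cdk4, was higher too, at 174 against 76.6, 181 against 72.9 and 43.4 against 17.7 CPM. Its cyclin Ccnd1 passed the 1.5-fold limit in no library (155 against 118, 140 against 117 and 65.2 against 64.2 CPM). Cdkn1a (p21), the p53 target that arrests the cycle, was at 410 against 272, 432 against 200 and 601 against 467 CPM, the last within the limit; in WD the further inhibitor higher was Cdkn2a (21.2 against 8.0 CPM). Among genes tied to macrophage self-renewal, Klf4 was lower in all 3 libraries (172 against 283, 62.1 against 110 and 824 against 1338 CPM) and Klf2 in CD and HFD (723 against 1228 and 357 against 857 CPM). Maf, Myc and Csf1r passed the limit in neither direction.

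Between CD and HFD, the members were lower in HFD or not different by the limit used. Members were called at 1.5-fold or more with at least 20 UMIs over both libraries, and 14 of 35 were lower in HFD, 0 higher and 21 neither, against 8.42% of all 11239 genes lower and 6.74% higher. The median member stood at −0.48 on the log2 scale (HFD over CD) and the median gene at −0.04. The S-phase sum was at −0.45 (1.37-fold lower, 1.30 to 1.43) and the mitotic sum at −0.37 (1.29-fold lower, 1.26 to 1.33). On the S-phase side the members called were Rrm2 at −1.36, Hells −1.10, Tk1 −0.96, Gmnn −0.74, Pclaf −0.72 and Rrm1 −0.61; Tyms, the other nucleotide gene, stood at 0.23. None of the 5 helicase genes was called (−0.12 to −0.55). On the mitotic side Bub1 was at −1.76, Ccna2 −1.46, Cdc20 −1.09, Cdca3 −0.86, Birc5 −0.84, Nusap1 −0.79, Ccnb1 −0.64 and Ccnb2 −0.63. Plk1 and Cenpf stood at −0.01 and Mki67 at −0.14.

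The members chose the class in each library, so their level inside it is partly fixed by the rule and is given as a description. Inside the cell-cycle-high cells, 76 against 155, the median member was at 0.04, with 5 members lower (Hells, Ung, Rrm2, Ccna2 and Bub1) and 4 higher (Uhrf1, Plk1, Mki67 and Cenpf), against 14.8% and 11.0% of all genes. In the remaining cells 28 members had enough UMIs and the median was −0.18, with Uhrf1 and Ccnb2 lower and Ung and Tyms higher, against 7.90% and 6.98% of all genes. Mki67 stood at 305 CPM in the HFD class and 189 in the CD class, and Cenpf at 281 and 155.

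**Figure D4:**
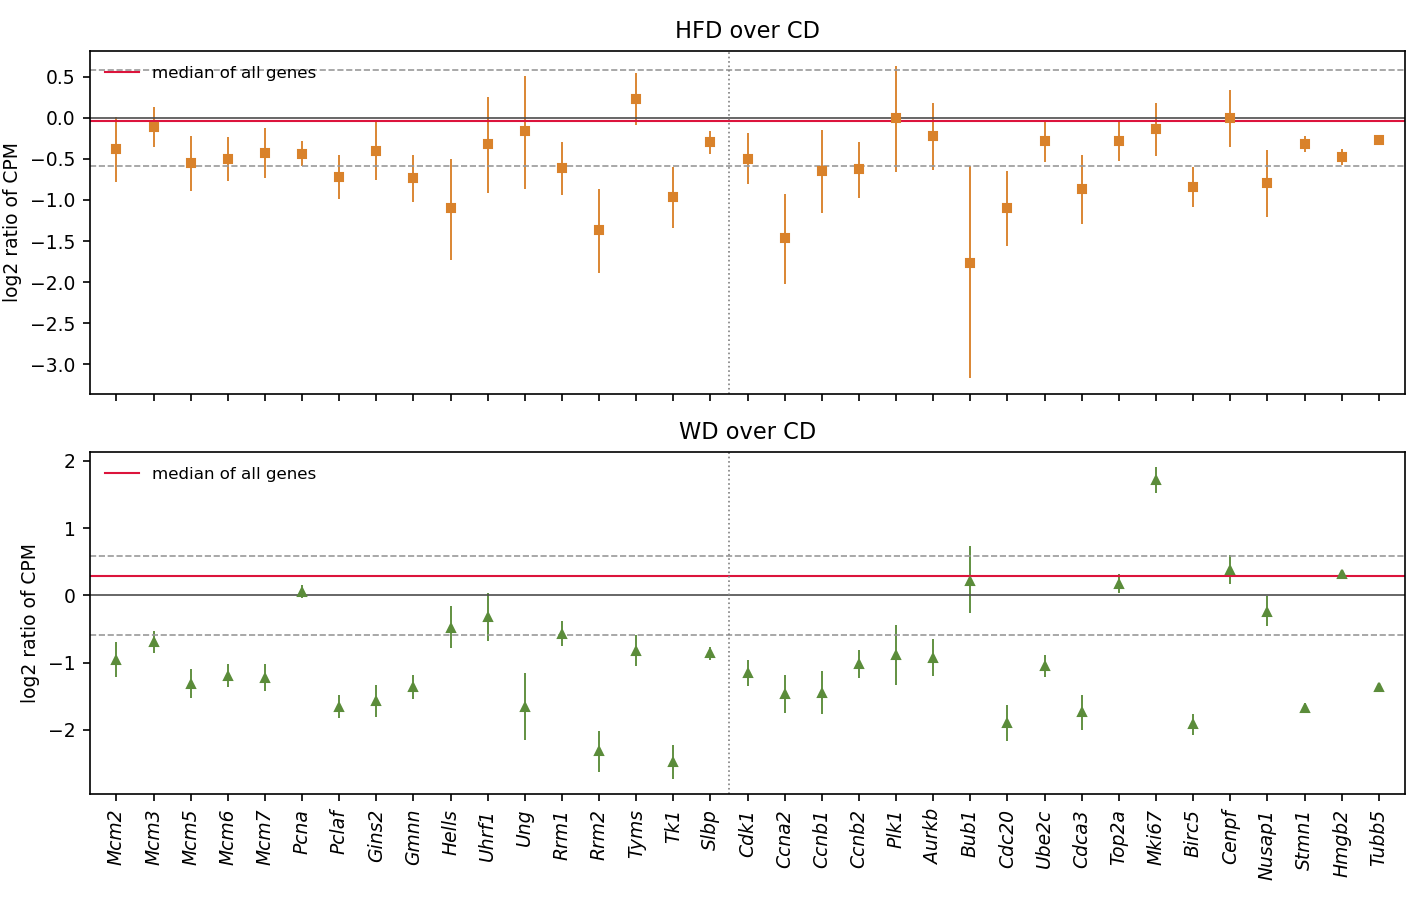
Log2 ratio of each member's CPM, HFD over CD and WD over CD, in C1q-high cells, with exact conditional 95% intervals (counting error only); dashed lines mark 1.5-fold and the red line the median of all genes. HFD points lie between −1.76 and 0.23, and WD points reach from −2.47 (Tk1) to 1.71 (Mki67).

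Between CD and WD more members were lower, with 1 exception. In WD 25 of 35 members were lower, 1 was higher and 9 were neither, against 26.9% of all 14467 genes lower and 47.3% higher. The median member was at −1.06 while the median gene was at 0.29, so values relative to the median gene are lower by 0.29, and members with a log2 ratio between 0 and 0.29 turn from higher to lower. These are Pcna (0.05), Top2a (0.17) and Bub1 (0.21). Tk1 was at −2.47 (23.9 against 4.30 CPM), Rrm2 −2.32, Birc5 −1.92, Cdc20 −1.90, Cdca3 −1.74, Stmn1 −1.67, Pclaf −1.65 and Ung −1.65. All 5 helicase genes were lower (−0.69 to −1.32). Mki67 was 3.28-fold higher (2.88 to 3.74), a log2 ratio of 1.71. Against HFD the WD library had 20 members lower and 4 higher, Bub1 (1.97), Mki67 (1.85), Hmgb2 (0.80) and Hells (0.62), against 26.0% and 47.7% of all genes; both comparisons use the same WD library.

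Mki67 was higher in WD inside and outside the cell-cycle-high class, at 1014 (WD) against 189 CPM (CD) inside and 22.3 against 2.44 CPM in the remaining cells, with Mki67 left out of the sum that chose the class. The counts of members that follow use the class chosen by all 31. Inside the class Cenpf (1.20), Bub1 (1.07) and Top2a (0.89) were higher too and 19 members were lower, against 44.0% and 28.0% of all genes. In the remaining cells Plk1, Top2a, Mki67, Cenpf, Nusap1 and Hmgb2 were higher and 12 members lower, against 47.7% and 26.4%. Set against HFD, Bub1 (2.28) and Mki67 (1.63) were higher inside the class and 23 members lower, against 45.3% and 26.7% of all genes, and in the remaining cells 10 were higher and 11 lower, against 47.9% and 26.0%. The WD ratios moved with the length of a gene's introns. Members with 8236 or more intronic bases (GENCODE vM21) had a median of −0.76 (18 members) and shorter ones −1.56 (17 members); all genes split at the same length had medians of 0.74 and −0.76. Between HFD and CD the same split gave −0.44 and −0.56 for members and −0.02 and −0.07 for all genes. Mki67, with 16517 intronic bases, Cenpf, with 32048, and Bub1, with 26390, are on the long side, and Tk1, with 5369, and Rrm2, with 3135, on the short side. Single members went against the split: Hmgb2, with 1090 intronic bases, stood at 0.32 and Pcna, with 1753, at 0.05, while Mcm6, with 23409, Gmnn, with 8614, and Cdk1, with 12859, stood at −1.19, −1.37 and −1.16. The part of intron length, software version, depth and the differing barcode list in the WD values was not tested.

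C1q-high cells were then split by detection of Lyve1 and Ccr2. In CD, cells with Ccr2 alone (440) held more of the members than cells with Lyve1 alone (932). The mitotic sum was 1894 against 1132 CPM in CD (1.67-fold, 1.61 to 1.74), 1409 against 915 in HFD (1.54-fold, 1.45 to 1.64) and 960 against 840 in WD (1.14-fold, 1.11 to 1.18). Without Stmn1, Hmgb2 and Tubb5 the ratios were 2.10, 1.74 and 1.06. The S-phase sum was 700 against 504, 542 against 398 and 346 against 303 CPM (1.39-fold, 1.36-fold and 1.14-fold). In WD the direction of the mitotic sum depended on the settings: with the C1q limit at 0.5%, or with Lyve1 and Ccr2 detected in 1000 UMIs per cell, the Lyve1 cells were higher.

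By member, 25 of 35 were 1.5-fold or more higher in the Ccr2 cells of CD (17 of 18 mitotic, 8 of 17 S-phase), 18 of 31 tested in HFD and 4 in WD, against 11.3%, 9.42% and 12.8% of all genes. Lower were 0 members in each library, against 17.4%, 23.4% and 17.2%. The 4 in WD, no larger a share than that of all genes, were Mcm5, Pclaf, Uhrf1 and Rrm2, all of the S-phase list. Pclaf (2.92-fold, 3.29-fold and 2.54-fold), Rrm2 (2.81, 2.95 and 2.10) and Mcm5 (1.59, 2.48 and 1.85) were higher in all 3 libraries. Plk1 was 3.19-fold, 1.45-fold and 0.87-fold, and Ccnb2 2.34-fold, 2.15-fold and 0.72-fold, above the limit in CD for both and in WD for neither. Pcna was level in each library (1.00, 0.97 and 1.02).

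**Figure D5:**
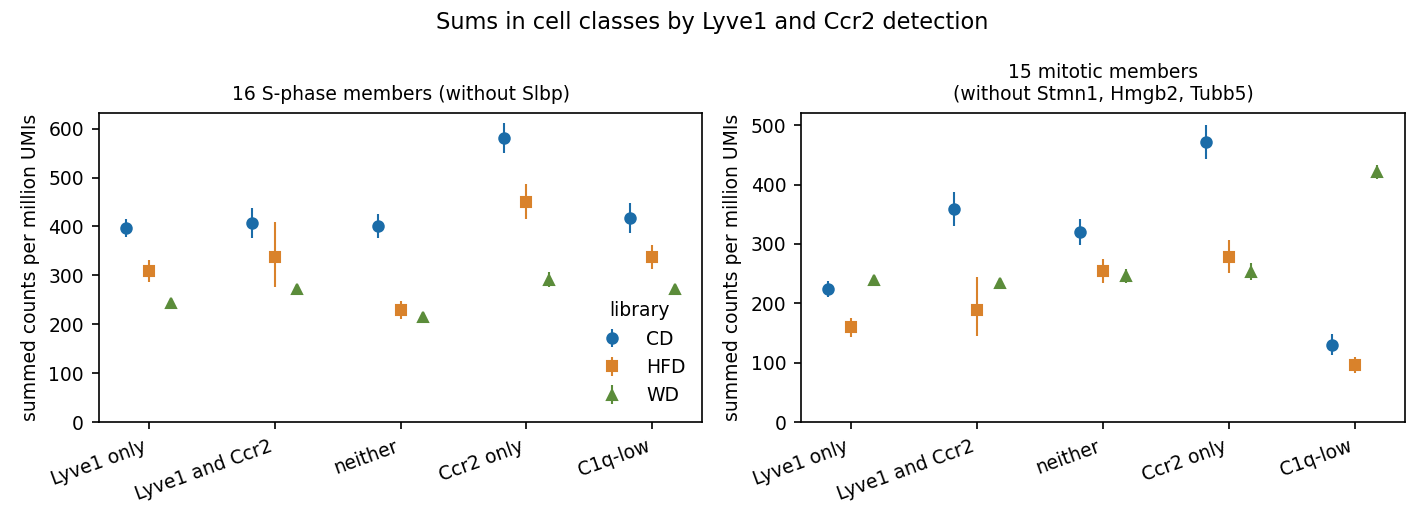
Sum of 16 S-phase genes (without Slbp) and of 15 mitotic genes (without Stmn1, Hmgb2 and Tubb5), in CPM, in C1q-high cells split by Lyve1 and Ccr2 detection and in C1q-low cells, for each library, with 95% Poisson intervals (counting error only). The Ccr2-only points stand above the Lyve1-only points in each library, by least in WD, where the intervals of the mitotic sum overlap. The C1q-low mitotic point is the highest of its library in WD at 421 CPM.

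The share of cell-cycle-high cells was read in the same 4 sets of C1q-high cells. It ranked them as the sum of the 15 mitotic genes did in CD, but not in HFD or WD. It was 5.04% of Lyve1-only, 10.0% of Ccr2-only, 9.55% of double-positive and 6.23% of double-negative cells in CD. In HFD the shares were 2.73%, 7.51%, 7.55% (4 of 53 cells) and 2.98%, and in WD 2.76%, 3.07%, 5.95% and 2.46%. The WD double-positive cells, with the highest share of that library, held 235 CPM of the 15 mitotic genes, the lowest of the 4 sets. In HFD the double-positive cells held 189 CPM and the double-negative cells 254. Intervals of the Lyve1-only and Ccr2-only shares were 3.73 to 6.65% and 7.36 to 13.2% in CD, 1.65 to 4.22% and 4.97 to 10.8% in HFD, and 2.12 to 3.53% and 1.41 to 5.75% in WD. Depth moved with these classes: double-positive cells had medians of 8465, 4528 and 28267 UMIs, the highest of each library. At 1000 UMIs per cell Lyve1 was found in 16.8%, 11.8% and 29.7% of cell-cycle-high cells against 25%, 22.2% and 39.2% of the remaining ones, and Ccr2 in 15.5%, 15.8% and 4.24% against 13.0%, 10.8% and 4.45%.

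C1q-low cells, 386 in CD, 715 in HFD and 1058 in WD, were read by the same rule. Of these 13 (3.37%, 1.81 to 5.69%), 18 (2.52%, 1.5 to 3.95%) and 42 (3.97%, 2.88 to 5.33%) were cell-cycle-high. The S-phase sum was 522, 432 and 342 CPM in C1q-low cells, in the same order of libraries as in C1q-high cells. The sum of 15 mitotic genes was 130, 95.5 and 421 CPM, highest in WD. Near-empty barcodes held 156 (CD) and 90.2 (HFD) CPM of the same genes, near the C1q-low values of those libraries, and WD listed none. Mki67 was at 5.48, 5.28 and 116 CPM, Top2a at 10.9, 17.8 and 86.4, Cenpf at 1.82, 4.80 and 36.9 and Ube2c at 9.73, 7.20 and 43.0. The makeup of these cells differed between libraries. In the cell-cycle-high C1q-low cells conventional dendritic markers summed to 778 (5 of 6 detected, Xcr1 at 0), 1145 (6 of 6) and 607 CPM (6 of 6), endothelial markers to 797, 5531 and 33.5 CPM (3, 5 and 3 of 5), and monocyte markers to 463 (2 of 4, with Plac8 and Chil3 at 0), 349 (Ccr2 alone) and 515 CPM (4 of 4). Neutrophil and lymphocyte markers were at 0 in CD and HFD and at 243 (4 of 5, Ly6g at 0) and 213 CPM (5 of 7) in WD. The remaining C1q-low cells held endothelial markers at 11040, 12295 and 45.9 CPM. The part of this makeup in the C1q-low values was not tested.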

How the data were processed

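Single-cell 3′ RNA was measured in sorted heart macrophages, 1 library per diet. The deposited values are raw UMI counts per gene and barcode, written by the authors' alignment software (version 3.0.1 in CD and HFD, version 7.2.0 in WD, per the file headers). Genome build GRCm38 and Seurat are named per the submitters' processing notes. Whether intronic reads were counted was not given in the sources used here. Genes were matched by identifier (30406 shared by all libraries).

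Cells were filtered and classed as stated in the text. CPM carry exact Poisson, ratios exact conditional and shares Clopper-Pearson 95% intervals. A ratio was called at 1.5-fold with 20 or more UMIs over both sets, the same for all genes. With 1 library per diet no test was run. A floor of 3 counts over the C1q-high cells equals 0.263 (CD), 0.454 (HFD) and 0.0498 (WD) CPM. No cells were removed as doublets for the main values, although the sort for single cells came before the droplets were made. Removing the highest Scrublet scores was an alternative. All 35 members are reported, and other regulators are named as examples by role. The members and lists were chosen with earlier results of these data known. Counting steps were tested on simulated data. Python 3.11.15, numpy 2.4.6, scipy 1.17.1, pandas 2.3.3, scanpy 1.11.5 and matplotlib 3.10.9 were used.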

Additional observations from a re-analysis of the deposited data

Results flagged for a closer look

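Barcodes with at most 100 UMIs, which enter none of the ratios and shares, carried the members above the limit that a count of 0 allows. In CD the S-phase sum there was 214 CPM, and 170 CPM without Slbp. The mitotic sum was 648 CPM, and 156 CPM without Stmn1, Hmgb2 and Tubb5. In HFD the S-phase sum was 165 CPM, and 122 CPM without Slbp. The mitotic sum was 493 CPM, and 90.2 CPM without the 3 genes. The C1q-high cells of the same libraries held 546 and 399 CPM of the S-phase genes and 1389 and 1073 CPM of the mitotic genes. With 3 libraries, no group was large enough to look for a library far from the others.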

How the results depend on the processing

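Of 87 values under alternative settings, 49 moved by less than their counting interval, 35 moved by more and 3 changed sign. Log2 values follow. The S-phase sum, WD over CD, was −0.71 with cells weighted equally and −1.09 centred on the median gene; WD over HFD it was −0.64 centred. The mitotic sum, HFD over CD, was −0.31 at 2000 UMIs, −0.33 at a C1q limit of 0.5% and −0.53 without Stmn1, Hmgb2 and Tubb5. WD over CD it was −0.40 without these 3 and −0.97 centred. WD over HFD it was −0.38 at 2000 UMIs, −0.38 at 0.5% C1q, −0.35 with equal weights and −0.59 centred, and turned to 0.12 without the 3 genes. The mitotic sum, Lyve1 only over Ccr2 only, was −0.66 at 0.5% C1q, −1.07 without the 3 genes, −0.66 with equal weights and −0.85 with thinned detection in CD. In HFD it was −0.80 without the 3 genes and −0.49 with thinned detection. In WD it was −0.0809 without the 3 genes and −0.10 with equal weights, and turned to 0.21 at 0.5% C1q and to 0.18 with thinned detection. The share of cells with 3 or more mitotic UMIs of 1000 was 3.18% (CD), 2.10% (HFD) and 2.10% (WD) without the 3 genes, 16.8%, 14.0% and 11.9% at 2 or more UMIs and 4.84%, 3.10% and 2.37% at 5 or more. The cell-cycle-high share was 9.51%, 6.29% and 4.2% at a limit of 0.1% and 4.58%, 3.0% and 2.45% at 0.3%; these limits, and the other alternatives for this share, were chosen after seeing the data. Removing the highest doublet scores (57, 59 and 182 cells) changed no sign. The cause of these changes was not tested. No paired analysis was possible because each diet has 1 library. With 1 library per diet the intervals say nothing of the spread between animals, and the shallow HFD library limits members with few UMIs, such as Bub1.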
